A study of Mus musculus with 8 samples.

Results

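The 8 mouse tumor libraries differ in how much RNA of the vessel wall they hold, and 4 of them, called vessel-wall-rich here, stand apart from the other 4, called vessel-wall-poor. The sides were set by the mean log2 CPM, a gene's count relative to its library's total, scaled between libraries by the trimmed mean of M-values (TMM), of 10 genes of vascular smooth muscle cells and pericytes: Acta2, Myh11, Tagln, Cnn1, Rgs5, Mcam, Cspg4, Notch3, Kcnj8 and Abcc9. Libraries 2L, 4a, 4b and 5 form the rich side and libraries 1, 2R, 3 and 6 the poor side, so that the 4 and 4 make up all 8 libraries of the series. Because the sides were read from expression in these same libraries, the 10 genes appear in no result, and a p-value for any other gene measures only how well that gene follows the sides.

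All 8 tumors have 1 label group and 1 genotype, given as HprtCre; Ewsr1-loxP; Atf1-loxP: Cre was expressed from the Hprt locus, and loxP sites in Ewsr1 and Atf1 let recombination join both genes. In people, the EWSR1-ATF1 fusion marks clear cell sarcoma, a soft tissue tumor. The tumors were induced genetically, received no drug and were snap frozen when the primary tumor caused morbidity, and total RNA was sequenced after RiboZero depletion of ribosomal RNA. There is no normal tissue and no treated arm, and age and Cre-expressing cell type are not given in the sources used here. The labels do not say what the numbers and suffixes in the titles mean or whether the tumors came from separate animals, so the spread between libraries may be partly technical. Libraries 4a and 4b share a number and a side and were counted as 1 unit in the main test, which left 3 rich units against 4 poor ones, whereas 2L and 2R share a number and lie on opposite sides.

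Blood vessels are lined by endothelial cells and wrapped by mural cells, which are pericytes on capillaries and smooth muscle cells on larger vessels. Endothelial cells recruit mural cells through platelet-derived growth factor acting on PDGFRB, and mural cells stabilise the endothelium in turn through angiopoietin acting on TIE2. The contractile genes of smooth muscle are driven by serum response factor (SRF) and its cofactors, and Notch signaling between endothelium and wall maintains the mural state. Tumor vessels often lack a complete wall.

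The score of the 10 genes was 5.44 in 2L, 5.41 in 4a, 5.21 in 5 and 5.15 in 4b on the rich side. On the poor side it was 4.09 in 3, 3.89 in 6, 3.84 in 1 and 3.47 in 2R. Libraries 4b and 3 are the members of each side nearest to the gap between the sides. Over the 9 of these genes that were above the low count limit in all libraries, the scores were 5.47 to 5.76 against 3.87 to 4.35. Without the TMM scaling the 10-gene scores were 5.24 to 5.84 against 2.78 to 4.22. The plot of both mural scores sets these values beside the other mural cell genes, for which the rich libraries had a mean log2 CPM of 3.96 to 4.37 and the poor ones 2.87 to 3.76.

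**Figure D1:**
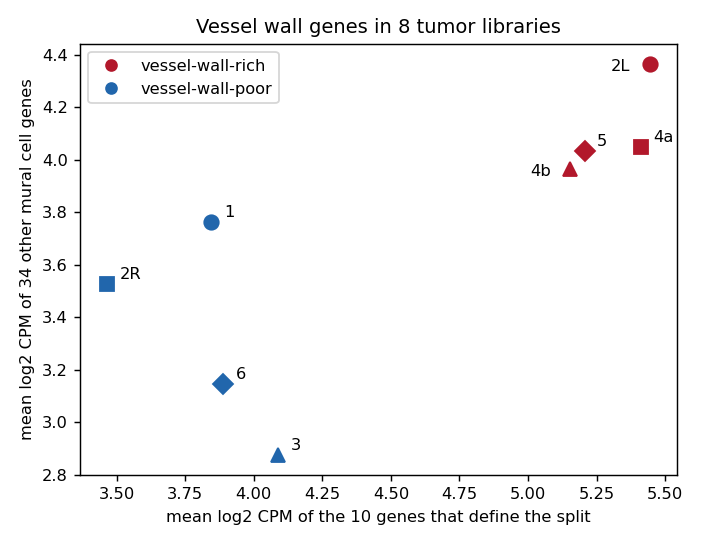
Mean log2 CPM of the 10 genes that define the sides (x axis) and of 34 other mural cell genes (y axis), 1 point per library, red for the 4 vessel-wall-rich and blue for the 4 vessel-wall-poor libraries. The x axis shows the rule itself; on the y axis the rich libraries lie between 3.96 and 4.37 and the poor ones between 2.87 and 3.76, library 1 being the highest of them.

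Depth and RNA composition differed among libraries on both sides. Rich libraries held 9750928 to 19682149 counts and poor ones 4817902 to 19388408. Mitochondrial and a few very abundant noncoding RNAs took 4.46% to 35.5% of the counts on the rich side and 5.18% to 75.4% on the poor side, the highest share being in library 3. Library 3 was also the shallowest, so that 3 counts, the most that a count of 0 allows, equal 1.59 CPM there, against 0.116 to 0.457 CPM in the other libraries, counting error alone being covered. The part of these shares in the differences below was not tested. In bulk tissue, fewer cells of a type and less RNA per cell cannot be told apart.

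After the low counts were removed, 15144 genes were tested between the sides with edgeR's quasi-likelihood test. No gene passed a Benjamini-Hochberg adjusted p of 0.05, neither higher nor lower in the rich tumors (0% in each direction), and the smallest adjusted p was 0.445. At an unadjusted p under 0.05, 563 genes (3.72%) were higher and 291 genes (1.92%) lower in the rich tumors. DESeq2's Wald test on the same units called 120 of the 15144 genes higher and 51 lower, the background for DESeq2 calls of list members below. As the quasi-likelihood test was the main one, no gene is described below as having risen or fallen. Instead, a gene is said to be separated when all 4 rich libraries lay above, or all 4 below, all 4 poor ones in TMM-scaled CPM. Of all genes tested, 471 (3.11%) were separated with the rich side higher and 330 (2.18%) with the rich side lower; among the 11467 genes with a mean CPM of at least 5, 377 (3.29%) were separated with the rich side higher. These shares are the background for every count of list members below. They depend on the scaling: with no TMM factor, which moved the median log2 difference of all genes from -0.06 to 0.36, 936 genes were separated upward and 25 downward. They also grew when a library was left out and fewer libraries had to be ordered, to 898, 806 and 888 upward without 2L, 3 or 6, and to 618, 844, 526, 735 and 868 downward without 1, 2L, 2R, 3 or 6. Without 1, 2L, 2R, 3, 4a, 4b, 5 or 6, in that order, the upward shares were 4.497%, 5.93%, 4.64%, 5.32%, 4.002%, 3.55%, 4.54% and 5.86%. The downward shares were 4.08%, 5.57%, 3.47%, 4.85%, 3.12%, 2.85%, 3.11% and 5.73%. They are the background for list counts with a library left out.

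Genes of smooth muscle cells and pericytes outside the 10 defining genes mostly had higher values in the rich tumors. They mark the cells the sides were chosen on, so they are described without a test. Of 40 such genes, 34 passed the filter on low counts, and Actg2, Kcnmb1, Nrip2, Olfr78, Pln and Ppp1r14a did not. Among the 34, 28 had a log2 difference above 0, with a median of 0.77 against -0.06 for all genes, and 8 were separated upward and none downward. The upward count was 13 without 1 and 13 without 5, beside 4.497% and 4.54% of all genes, and 2 members were separated downward without 3 and 1 without 6. Pdgfrb, the receptor through which mural cells are recruited, stood at 88.7, 83.9, 89.6 and 71.8 CPM in 2L, 4a, 4b and 5, and at 47.5, 32.4, 26.002 and 22.98 CPM in 1, 2R, 3 and 6, the order used for all genes below. Its 4 rich values lay within a narrow band above every poor value. Mylk, the kinase that starts smooth muscle contraction by phosphorylating myosin light chain, stood at 29.4, 29.8, 37.5 and 33.2 CPM on the rich and 13.8, 11.7, 21.2 and 11.6 CPM on the poor side. Anpep, the aminopeptidase CD13 of pericytes, had the largest difference of these 3, with 88.2, 87.3, 108 and 69.8 CPM against 17.8, 21.3, 15.4 and 34.6 CPM. The remaining 5 separated members were low in every library: the connexin gene Gja4 stood at 2.91 to 7.24 CPM on the rich and 0.945 to 2.12 CPM on the poor side, Olfr558 at 2.31 to 5.54 CPM against 0.411 to 0.859 CPM, Higd1b at 2.61 to 4.83 CPM against 0.452 to 1.29 CPM, Foxs1 at 1.18 to 2.48 CPM against 0.304 to 0.531 CPM and Lmod1 at 0.814 to 2.22 CPM against 0.172 to 0.531 CPM. Foxs1, Lmod1, Higd1b and Olfr558 passed the filter mainly through their rich libraries, so their separation is partly set by the filter. Of the 25 members with a mean CPM of at least 5, 3 were separated.

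The mural genes did not move as 1 block. Several genes commonly used as pericyte markers overlapped between the sides or had higher values in poor tumors. Vtn was at 37.1 CPM in library 1 but at 0.531 to 2.89 CPM in the other poor libraries, and at 1.204 to 3.03 CPM on the rich side. Ndufa4l2 ranged from 9.55 to 117 CPM on the poor and from 7.02 to 45.9 CPM on the rich side. Ebf1, a transcription factor of several mesenchymal lineages, was at 28.3, 35.6, 46.6 and 57.8 CPM against 116, 153, 42.5 and 106 CPM, with only the poor library 3 inside the rich range. Cox4i2 and Steap4 ranged from 5.24 to 38.7 CPM and 22.9 to 45.2 CPM on the rich side and from 2.65 to 26.9 CPM and 4.78 to 48.8 CPM on the poor side. Among contractile genes, Tpm2, which encodes beta-tropomyosin, was at 125, 75.3, 47.9 and 21.9 CPM against 29.4, 12.8, 24.9 and 8.96 CPM, overlapping through library 5 alone, and Myl9 was at 8.03 to 21.4 CPM against 3.08 to 11.1 CPM. Des, the intermediate filament desmin of all muscle types, was at 208 CPM in 2L, where skeletal muscle genes were also high, and at 2.61 CPM to 4.58 CPM in the other rich libraries. Cald1 and Synm, both cytoskeletal, overlapped, at 197 to 433 CPM and 236 to 492 CPM on the rich side and 97.6 to 243 CPM and 126 to 309.7 CPM on the poor side. For Rgs4, the rich libraries, at 19.5 to 480.3 CPM, spanned the whole poor range of 79.1 to 301 CPM. The other 15 members overlapped too. Among channel, receptor and junction genes, Ednra was at 128 to 171 CPM against 54.5 to 184 CPM, Gjc1 at 5.25 to 8.998 CPM against 2.096 to 18.6 CPM, Trpc6 at 2.41 to 10.7 CPM against 0.534 to 2.83 CPM and Itga7 at 37.6 to 86.3 CPM against 12.2 to 245 CPM. Trpc6, a calcium-permeable channel, missed separation through library 5 alone, which lay below library 1. Among genes of cyclic nucleotide signaling, which relaxes smooth muscle, Gucy1a1 was at 8.303 to 12.4 CPM against 2.63 to 20.7 CPM, Gucy1b1 at 7.72 to 11.9 CPM against 1.59 to 15.5 CPM, Pde3a at 118 to 156 CPM against 18.04 to 167 CPM, Pde5a at 23.98 to 57.2 CPM against 6.21 to 33.998 CPM and Mrvi1 at 3.01 to 5.78 CPM against 1.06 to 3.29 CPM. Both subunits of the nitric oxide receptor, Gucy1a1 and Gucy1b1, were highest in the poor library 2R. Among cytoskeletal genes, Filip1l was at 30.6 to 36.6 CPM against 9.02 to 32.9 CPM, Smtn at 39.2 to 87.2 CPM against 16.6 to 66.3 CPM and Synpo2 at 8.43 to 36.2 CPM against 2.89 to 17.4 CPM. The Notch target Heyl was at 1.85 to 8.07 CPM against 0.531 to 3.61 CPM, Sncg at 1.26 to 5.12 CPM against 1.22 to 28.4 CPM, and Myocd, the SRF cofactor of smooth muscle, at 0.654 to 2.64 CPM against 0.164 to 6.35 CPM. Myocd was thus highest in poor libraries, at a low level.

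Most endothelial genes had higher values in the rich tumors, and how many were separated depended on library 3 and on the scaling. All 32 members passed the filter, 28 had a log2 difference above 0, and the median difference was 1.12 against -0.06 for all genes. Their summed CPM overlapped, at 1010 to 1870 on the rich and 639 to 1871 on the poor side. The highest sum was in the poor library 2R, where Kdr alone was at 1398 CPM. The rich library 5, the lowest of its side, lay below the poor libraries 2R, 3 and 6. With the rich side higher, 11 of 32 were separated (34.4%, against 3.11% of all genes), and none with it lower. Without library 3 the count was 25 of 32 (78.1%, against 5.32% of all genes), and the median was 1.67. With no TMM factor the count was 19 of 32 (59.4%, against 6.18% of all genes). Library 3 held the highest value of the 8 libraries for 9 of the 32 genes and library 6 the lowest for 17. None of the 32 passed edgeR's adjusted threshold. DESeq2 called 6 of the 32 higher, beside 120 of 15144 genes: Adgrl4, Emcn, Icam2, Pecam1, S1pr1 and Tek.

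S1pr1, the sphingosine-1-phosphate receptor that tightens endothelial junctions, was at 77.5, 114, 85.1 and 55.4 CPM on the rich side and 22.6, 10.04, 18.04 and 14.5 CPM on the poor side. All rich values lay well above the poor ones, and the log2 difference, rich over poor as fitted by edgeR, was 2.27 ± 0.36 (SE) (edgeR adjusted p = 0.445). Pecam1, the junctional adhesion molecule CD31, was at 122, 141, 162 and 94.1 CPM against 34.2, 43.2, 67.4 and 29.5 CPM, with a log2 difference of 1.49 ± 0.35 (SE). Tek, which encodes the angiopoietin receptor TIE2, was low but even, at 10.5, 15.8, 17.1 and 15.8 CPM against 4.72, 4.26, 5.31 and 4.23 CPM. The phosphatase gene Ptprb, whose product acts on TIE2 and VE-cadherin, was at 55.3, 73.95, 89.9 and 87.9 CPM against 42.2, 24.96, 41.9 and 25.4 CPM. In these 4 genes the highest poor library was 1 or 3.

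The other separated members were Adgrl4 (25.6 to 40.1 CPM against 6.696 to 12.2 CPM), the ETS factor gene Erg (25.9 to 35.5 CPM against 3.33 to 18.03 CPM), the junction gene Esam (22.98 to 36.9 CPM against 4.48 to 15.9 CPM), the capillary and venous sialomucin gene Emcn (14.7 to 28.5 CPM against 3.65 to 8.93 CPM), Clec14a (8.14 to 19.4 CPM against 3.29 to 7.899 CPM), Ecscr (11.3 to 37.97 CPM against 2.58 to 10.6 CPM) and Icam2 (3.91 to 8.65 CPM against 1.37 to 3.18 CPM). Clec14a and Ecscr were separated by a narrow margin, library 1 and library 3 lying just below the lowest rich value. Vwf, the clotting protein stored in endothelium, and Cdh5, which encodes VE-cadherin, missed separation through library 3 alone: Vwf was at 328, 213, 295 and 103 CPM against 47.99, 31.5, 116 and 31.4 CPM and Cdh5 at 124, 88.3, 117 and 59.2 CPM against 25.7, 24.7, 59.4 and 20.7 CPM.

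Other endothelial genes went their own way. Kdr, the main receptor for VEGF-A, was at 153, 496, 487 and 113 CPM on the rich side and 208, 1398, 89.1 and 842 CPM on the poor side, so that 2R and 6 exceeded every rich library, and its log2 difference was -1.33 ± 0.99 (SE). Egfl7, a secreted endothelial protein, was likewise highest in 6 and 2R, at 369 CPM and 159 CPM. The SOX transcription factor genes Sox17 and Sox18 were highest in library 3, at 13.3 CPM and 15.9 CPM, and at no more than 7.98 CPM and 5.39 CPM on the rich side. Plvap, Podxl, Rasip1 and Tie1 were also highest in library 3, which was poor by the mural score. Tal1 was at 51.5 CPM in 2L and at most 2.44 CPM in the other rich libraries.

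**Figure D2:**
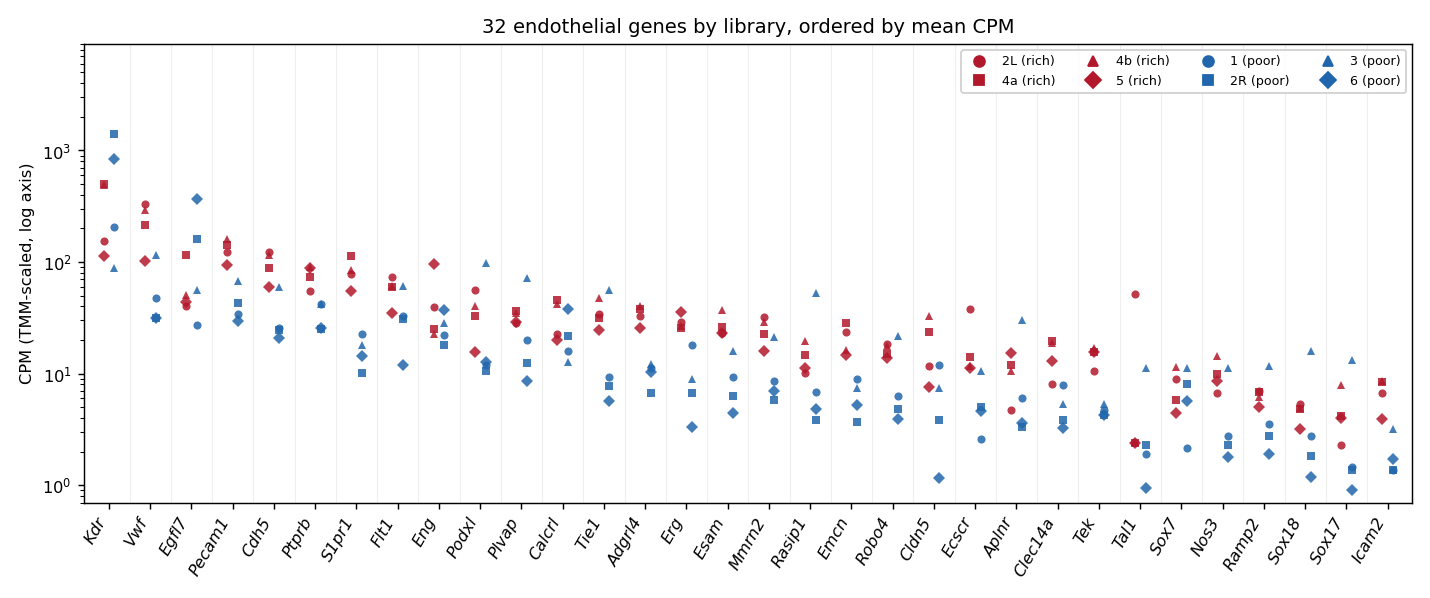
CPM after TMM scaling (log axis) of 32 endothelial genes in each library, red for the 4 rich and blue for the 4 poor libraries, with the marker shape giving the library. In 11 genes every red marker lies above every blue one; the blue triangle, library 3, reaches or passes the red markers in many of the others, and Kdr and Egfl7 are highest in the poor libraries 2R and 6.

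Genes that mark arteries and veins were few. Of 7 arterial members that passed the filter, 2 were separated (4 without library 3): the gap junction gene Gja5 at 18.1, 19.8, 31.6 and 10.8 CPM against 1.37, 3.96, 5.84 and 4.52 CPM, and the netrin receptor gene Unc5b at 97.2, 74.8, 64.4 and 60.6 CPM against 35.5, 22.5, 37.7 and 38.6 CPM. The arterial ligand gene Efnb2 was at 475 CPM in library 3, the next highest value being 43.7 CPM in 4b. Of 5 venous members, 1 was separated, Selp, which encodes the P-selectin that captures leukocytes, at 82.8, 183, 121 and 41.03 CPM against 13.3, 32.9, 10.1 and 1.23 CPM; the count was 2 without 1 and 2 without 5. The lymphatic genes did not follow: of the 5 members that passed, 4 had a log2 difference below 0 and the median was -1.53 (2 separated downward without 6). Pdpn, shared by lymphatic endothelium and fibroblasts, was at 53.6, 219, 150.2 and 42.7 CPM against 117, 419, 6.898 and 246 CPM, and Ccl21a was listed at 0 in every library under both of its identifiers. Of 6 genes of sprouting endothelium, the chemokine receptor gene Cxcr4 was separated, at 75.2, 35.1, 35.3 and 22.9 CPM against 11.7, 20.1, 15.4 and 12.9 CPM. Its log2 difference was 1.57, and 0.94 without 2L. Angpt2, which loosens vessel walls by opposing TIE2 signaling, was at 13.2 to 17.99 CPM on the rich side and at 120.1 CPM and 122 CPM in the poor libraries 1 and 2R, but at 3.37 CPM in 6.

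The signals that bring mural cells to vessels were described by 25 genes, all past the filter. Of these, 20 had a log2 difference above 0, with a median of 0.47, and 5 were separated upward (20%, against 3.11% of all genes): the ligand gene Pdgfd and the receptor genes Pdgfrb, Tek, S1pr1 and Acvrl1. Pdgfrb belongs to the mural list as well, and Tek and S1pr1 to the endothelial list, so these genes are counted in both. Pdgfd encodes a ligand of PDGFRB, and its values were nearly even within the rich side: 23.3, 19.7, 20.03 and 21.9 CPM on the rich side and 3.61, 3.196, 4.25 and 6.86 CPM on the poor side. Library 6 was the highest poor library and still far below, with a log2 difference of 2.26 ± 0.34 (SE) (edgeR adjusted p = 0.445). Acvrl1, the endothelial receptor ALK1, was at 21.3, 20.6, 17.1 and 20.97 CPM against 3.35, 12.5, 9.02 and 12.04 CPM. Cxcl12, a chemokine of stromal cells, was highest in the poor library 2R at 658 CPM, and the endothelin receptor gene Ednra overlapped, at 128 to 171 CPM against 54.5 to 184 CPM. DESeq2 called 4 of the 25 higher, Pdgfd, Pdgfrb, S1pr1 and Tek, beside 120 of 15144 genes.

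Among the VEGF ligands and receptors, no gene was separated upward and Vegfb was separated downward, 1 of 10 against 2.18% of all genes, at 4.38, 4.42, 3.03 and 4.51 CPM on the rich and 5.24, 7.91, 27.6 and 7.398 CPM on the poor side. Its log2 difference of -1.45 was -0.68 without library 3 and -0.66 with no TMM factor. Vegfa, the main angiogenic ligand, overlapped, at 105, 175, 274 and 175 CPM against 335, 358, 231 and 136 CPM. Of 17 Notch genes, 12 had a log2 difference above 0 and 2 were separated upward (11.8%, against 3.11% of all genes). The count was 4 without 1 and 5 without 3, beside 4.497% and 5.32% of all genes. The 2 were the ligand gene Dll1 at 21.6, 10.7, 20.3 and 14.05 CPM against 3.86, 8.52, 7.43 and 0.7398 CPM, and the coactivator gene Maml2 at 18.9, 15.7, 12.9 and 16.1 CPM against 7.64, 12.6, 6.898 and 11.01 CPM. Notch1 and Notch2, the members of highest mean CPM, overlapped, and Notch2 was at 199.7 to 253 CPM on the rich against 248 to 455 CPM on the poor side. In the nitric oxide and cyclic GMP pathway, which relaxes smooth muscle, 1 of 14 genes was separated: Npr3, the clearance receptor for natriuretic peptides, at 22.8, 19.1, 19.1 and 28.4 CPM against 4.29, 2.13, 4.78 and 10.4 CPM. The count was 2 without 1, 2R or 6 and 3 without 3 or 5, beside 4.497% to 5.86% of all genes. Nos1 was at 812 CPM in library 3 and at most 53.6 CPM elsewhere.

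Most genes of the actin cytoskeleton under SRF had higher values in the rich tumors. All 19 members passed, 15 had a log2 difference above 0, the median was 0.49, and 5 were separated upward (26.3%, against 3.11% of all genes). With no TMM factor the count was 8 (42.1%, against 6.18% of all genes). Flna, the actin crosslinker filamin A, was at 1496, 1441, 1731 and 1357 CPM against 812, 944, 612 and 938 CPM, and Actn1, alpha-actinin, at 141, 89.9, 99.4 and 90.2 CPM against 60.96, 47.5, 66.3 and 47.5 CPM. Cnn2, a calponin related to the defining gene Cnn1, was at 52.2, 56.6, 35.5 and 50.5 CPM against 21.3, 32.6, 20.2 and 14.96 CPM, with a log2 difference of 1.18 ± 0.30 (SE). Tpm1, which encodes a tropomyosin shared by smooth and striated muscle, was at 940.5, 369.6, 268 and 198 CPM against 115, 185, 156 and 128 CPM; its highest value was in 2L, beside the skeletal muscle genes named below, and its log2 difference was 1.75 with 2L and 0.85 without. Elk4, a partner of SRF, was separated by a small difference, at 84.7, 84.2, 95.5 and 85.9 CPM against 68.6, 76.999, 73.8 and 56.8 CPM. Of the 19, DESeq2 called Cnn2 alone, beside 120 of 15144 genes called higher. Of 18 contraction and calcium genes that passed, 2 were separated (11.1%, against 3.11% of all genes), Mylk and the myosin phosphatase subunit gene Ppp1cb. Mylk is counted among the other mural genes as well. The median of the contraction list, 0.10, was near that of all genes. Atp2a2, the calcium pump SERCA2, had higher values on the poor side, at 251, 467, 352 and 736 CPM against 225, 282, 242 and 148 CPM, with library 1 inside the rich range.

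SRF binds the CArG box, a short sequence rich in A and T between pairs of C and G. Promoters of RefSeq (build GRCm38.p6, from 250 bases before to 50 bases after each start) were searched for it on both strands. A CArG box was found for 1.81% of the 27025 genes in the promoter table, for 4 of 17 SRF list members with a promoter (23.5%), and for 3 of 27 mural list members (11.1%). None of the 5 separated mural genes with a promoter had one in this window. Cnn2 is the separated SRF list member that had one; its window is shown because it pairs a match with separated values, and the capitals mark the CArG box, 47 to 56 bases before the start of transcription (chr10:79988519-79988578, plus strand).
Cnn2: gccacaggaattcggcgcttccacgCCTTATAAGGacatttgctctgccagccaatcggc
The core of the Notch effector RBPJ, TGGGAA, was found on either strand for 28.3% of all genes and for 11 of 27 mural list members (40.7%). The share was similar in other lists, at 41.2% for SRF, 40% for endothelial and 36.8% for interferon response members with a promoter. It was 30.8% for Notch genes, and 1 of the 5 separated mural genes with a promoter had a match. These matches are descriptions of letters and say nothing about binding in these tumors.

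Matrix genes were higher in part. Of 22 fibroblast and matrix genes, all past the filter, 19 had a log2 difference above 0 with a median of 0.71. Of these 22, 5 were separated upward (22.7%, against 3.11% of all genes). The count was 8 without 2L, beside 5.93% of all genes. Bgn, the proteoglycan biglycan, was at 349, 496, 415 and 351 CPM against 94.5, 178, 91.3 and 137 CPM, and Cd34, a marker of endothelium and of adventitial fibroblasts, at 99.7, 75.5, 66.1 and 105 CPM against 27.8, 16.6, 33.4 and 24.7 CPM. Cd34 had a log2 difference of 1.85 ± 0.30 (SE). DESeq2 called Bgn and Cd34, 2 of the 22 members, beside 120 of 15144 genes called higher. The collagen VI genes Col6a2 and Col6a3 were separated by smaller margins, at 229 to 309 CPM and 167 to 309 CPM on the rich side against 139.6 to 203 CPM and 68.98 to 164 CPM on the poor side. Fap, the protease of activated fibroblasts, was at 16.4, 30.5, 24.2 and 33.5 CPM against 13.8, 11.9, 1.59 and 10.5 CPM. The fibrillar collagen gene Col1a2 and the fibronectin gene Fn1, the members of highest mean CPM, overlapped widely: Col1a2 reached 13176 CPM in 2R and Fn1 15438 CPM in 6, both poor.

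Basement membrane genes, which surround mural cells, gave no upward separation among 16. The count was 1 without 1, 2R or 5 and 4 without 3, beside 4.497% to 5.32% of all genes. Lamb2, the laminin beta2 chain typical of vessel walls, was separated downward, 1 of 16, at 303, 223, 245 and 191 CPM against 434, 386, 397 and 452 CPM. With no TMM factor, neither Vegfb nor Lamb2 was separated, the log2 difference of Lamb2 moved from -0.79 to -0.37, and 2 basement membrane genes, Agrn and Col18a1, were separated upward. Of 20 elastic fiber genes none was separated. The count was 4 without 2L, 1 without 5 and 3 without 6, beside 5.93%, 4.54% and 5.86% of all genes. Lox, the collagen and elastin crosslinking oxidase, was at 141, 548, 519.6 and 376 CPM against 158, 134, 55.2 and 150.1 CPM. Only 2L lay inside the poor range of Lox. Of 14 integrin genes, 2 were separated: Itga1, a collagen receptor of smooth muscle, at 94.6, 274, 223 and 82.5 CPM against 49.02, 47.9, 15.4 and 73.8 CPM, and Itga5, a fibronectin receptor, at 29.3, 36.3, 51.96 and 34.1 CPM against 28.8, 27.1, 13.8 and 11.7 CPM. The margin was narrow for both genes. Itga7, the laminin receptor of smooth and skeletal muscle, was at 37.6 to 86.3 CPM against 12.2 to 245 CPM.

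**Figure D3:**
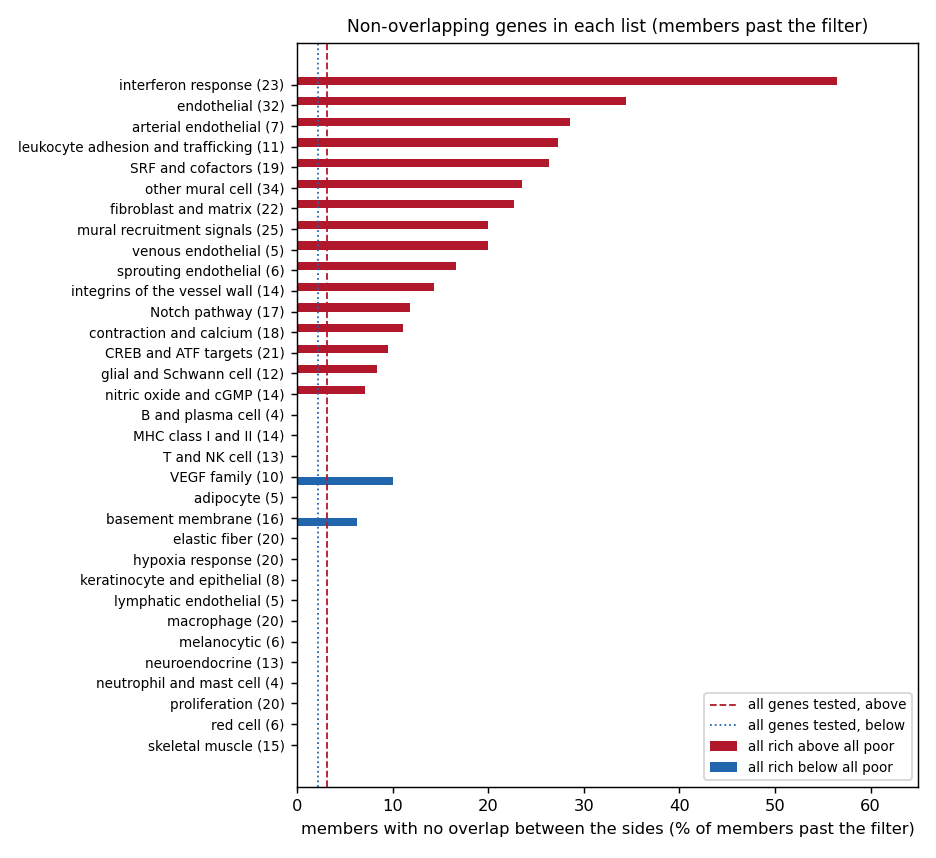
Share of the members past the filter (percent, number of members in brackets) that were separated with the rich side higher (red bars) or lower (blue bars) in each of 33 gene lists. The dashed red and dotted blue lines are the shares of all genes tested, 3.11% and 2.18%; interferon response genes reach 56.5% and endothelial genes 34.4%.

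With all 8 libraries and TMM scaling, the interferon list had the greatest share of separated genes of the 33 lists; without library 3 or with no TMM factor, its share was below that of the endothelial list (56.5% against 78.1%, and 52.2% against 59.4%). Of 24 interferon response genes, which cells induce on sensing virus or interferon, 23 passed the filter (Cxcl10 did not), and all 23 had a log2 difference above 0, with a median of 1.58. With the rich side higher, 13 were separated (56.5%, against 3.11% of all genes), and 11 of the 19 members with a mean CPM of at least 5 were (against 3.29%). The count was 12 with no TMM factor, against 6.18% of all genes. It was 8 of 15 with a filter that required the minimum count in every unit, against 3.28% of all genes. With single libraries left out it was 13 to 15, against 3.55% to 5.93% of all genes. Fewer libraries then had to be ordered, so this count could hardly fall. None passed edgeR's adjusted threshold. DESeq2 called 5 of the 23 higher, beside 120 of 15144 genes: Ifi44, Ifit1, Ifit2, Ifit3 and Isg15. Library 2L held the highest value for 15 of the 23 genes and library 1 the lowest for 12. Without 2L the median was 1.02.

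Ifit1, whose product binds viral RNA, was at 25.9, 21.3, 10.3 and 8.53 CPM on the rich side and 1.89, 4.41, 2.65 and 4.398 CPM on the poor side, with a log2 difference of 2.35 ± 0.49 (SE) (edgeR adjusted p = 0.518). Ifit2 was at 33.4, 19.3, 9.53 and 12.1 CPM against 2.75, 7.46, 3.18 and 5.92 CPM, and Ifit3 at 14.8, 15.5, 5.17 and 6.62 CPM against 0.944, 1.98, 2.12 and 2.84 CPM. In these 3 genes 4b or 5 was the lowest rich library. Isg15, a ubiquitin-like modifier, was at 13.8, 14.8, 10.7 and 9.43 CPM against 1.63, 4.72, 5.31 and 1.93 CPM, and Ifi44 at 26.9, 16.5, 13.4 and 7.73 CPM against 0.944, 2.43, 2.12 and 2.67 CPM, the greatest log2 difference of the list at 3.03 ± 0.55 (SE). Irf7, the factor that amplifies the interferon response, was at 76.2, 41.2, 21.7 and 21.8 CPM against 8.24, 8.67, 20.2 and 17.8 CPM, its 2 lowest rich values lying just above library 3. The RNA sensor gene Ddx58 was at 29.7 to 61.7 CPM against 17.6 to 25.6 CPM. Separation was narrow for Stat2, a signaling factor of the type I interferon receptor, at 42.3, 30.3, 38.5 and 28.4 CPM against 27.6, 27.5, 24.4 and 22.7 CPM. The other separated members were Mx1 (4.58 to 12.02 CPM against 0.531 to 3.12 CPM), Mx2 (3.68 to 6.43 CPM against a range of 0 to 2.302 CPM), Oas2 (5.93 to 13.6 CPM against 1.07 to 5.06 CPM), Oasl2 (34.01 to 49.5 CPM against 15.9 to 31.3 CPM) and Xaf1 (13.97 to 17.5 CPM against 6.096 to 11.7 CPM). In library 3, where 3 counts equal 1.59 CPM, Ifit1, Ifit3 and Ifi44 were near that limit, at 2.65, 2.12 and 2.12 CPM. The lowest poor values of Mx1 and Mx2 rest on few counts or none. The filter asked for the minimum count in 3 units, which the rich side alone could give. The separation of low members such as Mx2 may thus be partly set by the filter. Gbp2 and Bst2 overlapped, with library 5 below 2R in both.

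**Figure D4:**
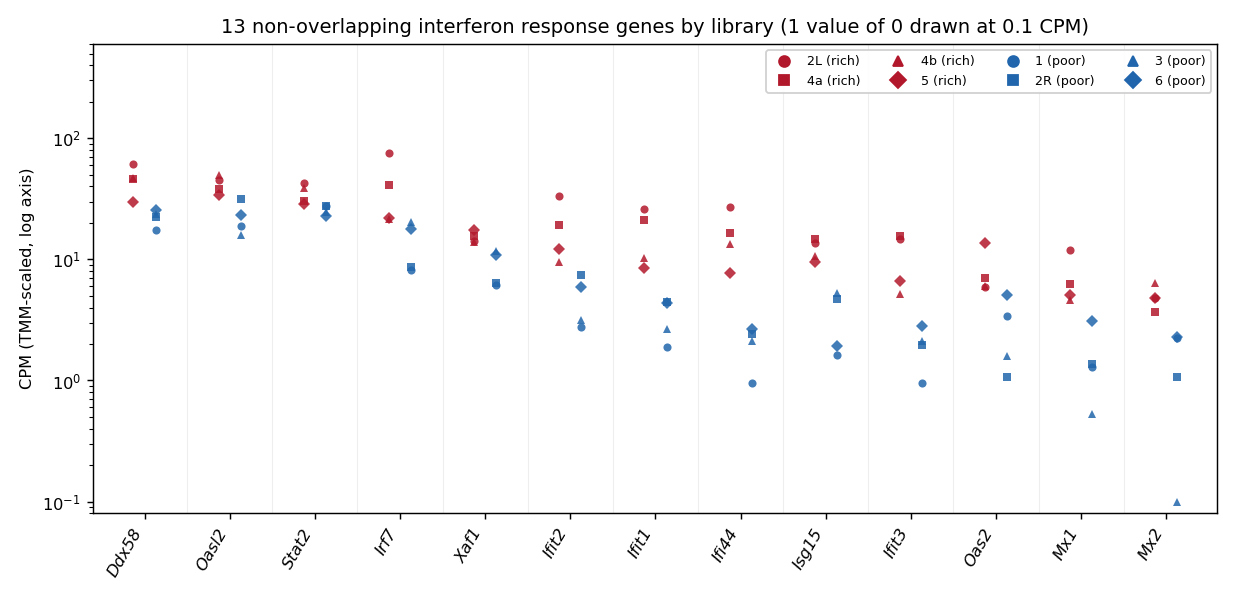
CPM after TMM scaling (log axis) of the 13 separated interferon response genes in each library, red for the 4 rich and blue for the 4 poor libraries, 1 value of 0 being drawn at 0.1. Every red marker lies above every blue one by the choice of genes; the gap is wide in Ifi44 and narrow in Stat2, and the red circle, library 2L, is the highest in Ifi44, Ifit1, Ifit2 and Irf7.

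Interferon acts through the interferon-stimulated response element, whose core is GAAANNGAA. On either strand of the RefSeq promoters it was found for 9.76% of all genes and for 14 of 19 interferon list members with a promoter (73.7%), including 6 of the 10 separated members that had one. The search was added after the interferon values were seen. Windows around the matches of 4 separated genes are shown because these genes pair separated values with 1 or 3 matches each. Capitals mark GAAANNGAA or its reverse complement, overlapping matches run together, and each window reads 5′ to 3′ on the gene's strand. The windows are chr19:34640755-34640838 (plus strand) for Ifit1, chr19:34583349-34583460 (plus) for Ifit3, chr4:156200851-156200921 (minus) for Isg15 and chr10:128270252-128270310 (plus) for Stat2.
Ifit1: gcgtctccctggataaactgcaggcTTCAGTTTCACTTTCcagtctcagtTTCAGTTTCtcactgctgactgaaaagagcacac
Ifit3: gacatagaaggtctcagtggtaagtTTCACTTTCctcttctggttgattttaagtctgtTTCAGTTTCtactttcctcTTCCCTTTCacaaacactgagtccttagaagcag
Isg15: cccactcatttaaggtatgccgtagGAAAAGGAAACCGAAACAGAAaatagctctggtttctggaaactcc
Stat2: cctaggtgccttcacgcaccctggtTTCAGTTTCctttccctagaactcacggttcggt
The values of these 4 genes stand in the paragraph before the plot of interferon genes. A match does not show that the element was used.

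Genes of antigen presentation, many of which interferon also induces, had log2 differences above 0 in all 14 members, with a median of 0.74, but none was separated (1 without 2R). The highest value of every one of the 14 was in 2L, and without 2L the median was -0.39. The class I gene H2-K1 was at 2337, 573, 421 and 241 CPM against 142, 1630.1, 337 and 367 CPM, so that 2L and the poor library 2R were both high. The class II gene H2-Aa was at 2659.6 CPM in 2L and at 360.4 to 470.4 CPM in the other rich libraries, against 138 to 822 CPM on the poor side. Summed over the list, T and NK cell genes were at 121 CPM in 2L, 109 in 2R and 116 in 3, and at 13.2 to 27.1 in the other 5 libraries. Macrophage genes summed to 1768 to 4502 CPM on the rich and 676 to 7461 on the poor side, and none of the 20 was separated. The part of immune cells in the interferon values was not tested. Of 11 adhesion and chemokine genes through which leukocytes leave vessels, 3 were separated (27.3%, against 3.11% of all genes): Selp, Icam2 and Vcam1. Selp is counted among the venous and Icam2 among the endothelial genes as well. With no TMM factor the count was 2, Icam2 and Selp, against 6.18% of all genes. Vcam1, an adhesion molecule of activated endothelium and pericytes, was at 144, 113, 126 and 93.8 CPM against 57.2, 91.5, 20.7 and 82.3 CPM. E-selectin, encoded by Sele, was at 38.4, 33.6, 35.1 and 12.7 CPM against 15.5, 6.696, 6.898 and 0.164 CPM, with library 1 above library 5.

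Tumor programs showed little separation. Of 20 hypoxia response genes, 16 had a log2 difference below 0, with a median of -0.45, and none was separated. Without library 3, the median was -0.70 and 6 were separated downward, beside 4.85% of all genes. Single genes were separated without 2L or 5. Pdk1, the kinase that turns pyruvate away from mitochondria, was at 42.8, 36.2, 20.8 and 37.8 CPM against 92.04, 73.3, 37.1 and 112 CPM, and P4ha1, a collagen hydroxylase induced by hypoxia, reached 887 CPM and 1352 CPM in 2R and 6. Lox, counted on this list too, ran the other way. Proliferation genes had a median of -0.29, none was separated (1 upward without 2L and 1 downward without 4a), and the median was 0.10 without library 3 and 0.28 with no TMM factor. Library 3 held the highest value for 14 of those 20 genes, among them Mki67 at 395 CPM against 106 to 143 CPM in the other poor and 117 to 168 CPM in the rich libraries.

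Neuroendocrine genes had a median of -0.79 with none of 13 separated (1 upward without 1, 2L or 3). The median was 0.52 without library 1, which held the highest value for 8 of them, and 0.04 with no TMM factor, where 1 gene was separated upward. Syp, a synaptic vesicle protein, was at 39.8 CPM in library 1, 0.945 to 9.59 CPM in the other poor libraries and 0.887 to 4.499 CPM on the rich side. Chgb, a granin, was at 98.6 CPM in library 1, 0.658 to 14.0 CPM in the other poor libraries and 2.79 to 11.2 CPM on the rich side. Of 15 melanocytic genes, 6 passed and none was separated (1 without 6), and Tyr, Tyrp1, Slc45a2, Mlana, Oca2 and Slc24a5 were listed at 0 in all 8 libraries. Mitf was at 33.04 to 39.1 CPM on the rich side and highest in library 3 at 130.01 CPM. Of 12 glial genes, 1 was separated (8.33%, against 3.11% of all genes): Mal, at 13.7, 3.72, 4.07 and 2.81 CPM against 1.803, 0.457, 1.06 and 0.0822 CPM. Mal passed the filter mainly through its rich libraries, so its separation is partly set by the filter. Cdh19 was at 491 CPM in library 6. Without library 6, 3 glial genes were separated upward and 2 downward, beside 5.86% and 5.73% of all genes. Of 21 targets of CREB and ATF factors, the family to which ATF1 belongs, 2 were separated (9.52%, against 3.11% of all genes). The count was 4 without 2L and 5 without 2R, beside 5.93% and 4.64% of all genes. The 2 were Bdnf, a neurotrophin gene, at 7.64, 9.86, 16.8 and 14.05 CPM against 3.43, 2.89, 1.59 and 2.06 CPM, and Junb, an AP-1 gene, at 138, 106, 115 and 100.4 CPM against 33.2, 98.8, 40.9 and 40.9 CPM. Junb was separated from library 2R by a narrow margin. Bdnf had a log2 difference of 2.14 ± 0.41 (SE) (edgeR adjusted p = 0.445). DESeq2 called Bdnf, 1 of the 21 members, beside 120 of 15144 genes called higher. Egr1, an early response gene, was at 18.8, 60.7, 104 and 78.9 CPM against 13.5, 23.3, 12.2 and 3.86 CPM, overlapping between 2L and 2R alone.

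Markers of neighbouring tissues were high in single libraries on either side. Skeletal muscle genes summed to 21845 CPM in 2L and 6956 in 3, and to 15.7 to 137 in the other 6; the muscle giant Ttn was at 12045 CPM in 2L and 5126 CPM in 3. Their median log2 difference was 2.82 with all libraries and -4.50 without 2L. Tpm1, Tpm2, Des and Synpo2, named above, are also expressed in skeletal muscle, and its part in their 2L values was not tested. Without 2L, 6 of the 19 SRF genes and 9 of the 34 other mural genes were separated, beside 5.93% of all genes in that setting. With fewer libraries to order, such a count can hardly fall. Keratinocyte and epithelial genes summed to 2126 CPM in 2L and 1818 in 5 and to 469 to 985 in the other 6, with Epcam at 535 CPM and 438 CPM. Red cell genes summed to 14171 CPM in 5, with Hbb-bs at 11236 CPM, and to 17.3 to 434 elsewhere. Fat cell genes summed to 334 CPM in 5 and to 25.2 to 71.0 elsewhere. Without 5, 14 of 32 endothelial and 15 of 23 interferon genes were separated, beside 4.54% of all genes in that setting, again with fewer libraries to order. The part of red cell and fat cell RNA in the endothelial and interferon values was not tested. B and plasma cell genes summed to 653 CPM in 2R, where Ighm was at 406 CPM, and to 5.58 to 121 elsewhere. Of the 4 neutrophil and mast cell genes that passed, none was separated (1 without 6). None of the muscle, epithelial, red cell, fat cell, macrophage, T and NK cell or B cell genes was separated in the full set of libraries. With single libraries left out, 2 muscle genes were separated downward without 2L and 1 without 6, 1 red cell gene downward without 5, and 1 gene each upward in the T and NK cell and the fat cell lists without 2R and in the epithelial list without 4b.

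**Figure D5:**
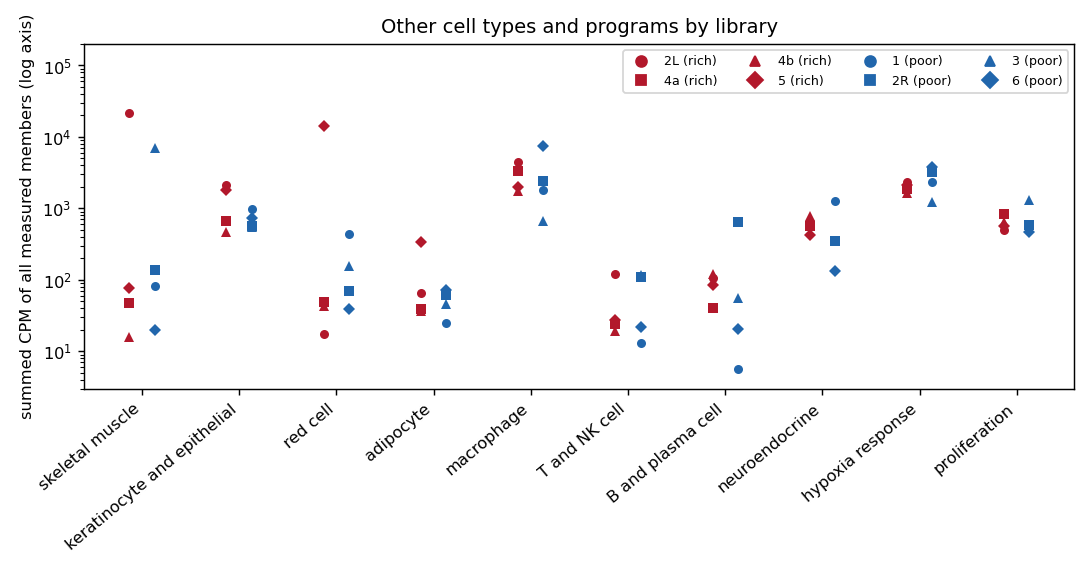
Summed CPM (log axis) of all measured members of 10 gene lists in each library, red for the 4 rich and blue for the 4 poor libraries. Skeletal muscle genes are high in 2L and 3, red cell genes in 5, and no list shown has every red marker on one side of every blue one.

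The protein-coding genes of smallest p outside the mural list did not pass the adjusted threshold in edgeR, and each of these 12 was called by DESeq2. The 12 were picked by edgeR's p, and DESeq2 used the same counts, so its calls are not independent of that choice. On the higher side the genes were Rerg, Fam19a4, Phldb2, Pdgfd, S1pr1 and Fut2, all separated. Rerg, a small GTPase regulated by estrogen (chromosome 6, 137054825 to 137170497 on mm10), was at 53.3, 66.8, 45.5 and 25.5 CPM against 3.43, 3.35, 7.43 and 2.71 CPM. The log2 difference was 3.53 ± 0.46 (SE) (edgeR adjusted p = 0.445), the smallest p of all genes. Fam19a4, which encodes a small secreted protein (chromosome 6, 96831203 to 97060413), was at 17.9, 39.8, 21.1 and 16.9 CPM against 3.61, 1.37, 3.18 and 2.01 CPM. Phldb2, a membrane-binding protein of the cell cortex (chromosome 16, 45746243 to 45953598), was at 52.9, 35.1, 58.3 and 74.8 CPM against 17.5, 12.02, 16.4 and 16.5 CPM, and its poor values were nearly even. Fut2, a fucosyltransferase of epithelia (chromosome 7, 45648591 to 45666394), was at 19.2, 8.47, 5.99 and 25.8 CPM against 1.97, 2.74, 2.12 and 2.302 CPM. Its 2 highest values were in 2L and 5, the libraries with the most epithelial RNA, whose part in them was not tested.

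On the lower side the 6 genes of smallest p were Kcnd3, Raver2, Chst2, Zfp385b, Zic2 and Adora2a, each with all rich libraries below all poor ones. Kcnd3, a voltage-gated potassium channel gene (chromosome 3, 105452330 to 105674002), was at 0.892, 1.02, 0.3695 and 1.204 CPM against 13.8, 5.78, 8.49 and 6.41 CPM, a log2 difference of -3.18 ± 0.50 (SE) (edgeR adjusted p = 0.445). Chst2, a sulfotransferase (chromosome 9, 95399292 to 95406722), was the most abundant, at 42.6, 77.5, 41.02 and 32.9 CPM against 226, 290.2, 93.9 and 368 CPM, and library 3 was the lowest poor library. Adora2a, an adenosine receptor gene (chromosome 10, 75316877 to 75334784), was at 13.4, 13.5, 12.9 and 6.02 CPM against 24.8, 52.5, 41.9 and 35.1 CPM. Zic2, a zinc finger factor of neural development (chromosome 14, 122475435 to 122479852), was at 4.34, 2.78, 0.3695 and 1.61 CPM against 14.7, 19.5, 8.49 and 10.2 CPM, and the RNA-binding protein gene Raver2 (chromosome 4, 101068983 to 101152370) at 2.83, 3.84, 2.44 and 1.304 CPM against 10.04, 8.98, 12.2 and 24.003 CPM. Zfp385b, a zinc finger gene (chromosome 2, 77410634 to 77819639), was at 5.24, 6.87, 8.57 and 2.91 CPM against 11.1, 32.4, 29.7 and 29.02 CPM, library 1 lying nearest to the rich values. The edgeR adjusted p of these 6 was 0.445 to 0.591.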

How the data were processed

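Total RNA after ribosomal depletion was measured in 8 tumor libraries. The deposited table holds raw gene counts that the authors made; cutadapt, STAR 2.7.5a, featureCounts, RSEM and the mm10 build are named in the submitters' processing notes, without saying which tool gave the counts or whether strand was used, so overlapping and antisense genes, and near-identical gene copies, are uncertain. Of 49671 Ensembl identifiers, 49412 (99.48%) matched a symbol in GENCODE M21 on mm10.

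The members of each side and all gene lists were chosen with earlier results of these data known. Counts of 4a and 4b were summed to 1 unit, and genes were kept with edgeR's filterByExpr (minimum count 10, which is 0.954 CPM, in at least 3 units). Without the defining 10, 15144 genes were tested with edgeR 4.0.16 (R 4.3.3, TMM, robust quasi-likelihood F-test, Benjamini-Hochberg adjusted p under 0.05). Per-library CPM values are TMM-scaled, and mean log2 CPM values used a prior count of 2. The test was checked on simulated counts. Alternatives used DESeq2 1.42.0, limma 3.58.1 (voom), other scalings and filters, a covariate and leaving out each library. Named genes were the 6 of smallest p on each side and, from each list, the 2 of highest mean CPM and the 2 of smallest p; separated genes beyond these were chosen after their values were seen. Lists were counted, not tested. No batch or date is labelled, and no columns of other samples were used. 1 interferon list member is counted but not reported here by name.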

Additional observations from a re-analysis of the deposited data

Results flagged for a closer look

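Within each side of 4 libraries, 178 genes were examined: the named genes, the other mural cell genes and the separated members of lists. The search was for a library whose gap to the nearest of the other 3 was larger, as a share of the side's range, than Dixon's critical value for groups of 4. Other genes described in the text, such as Tal1, Grin3a and Cntfr, were not examined. Of the 356 groups, 51 (14.3%) had such a library. Chance flags about 1 in 20 groups of normally distributed values, and these CPM values are skewed and many of the genes move together, so the share cannot be read against it. The values are CPM after TMM scaling, most of them high, and none is explained here.

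Library 2L stood apart from the rich side in 13 genes. Skeletal muscle genes were Ttn at 12045 (the next rich library was at 40.6), Myh4 at 3309 and Myh2 at 23.7, beside the muscle and mural genes Des at 208 and Synpo2 at 36.2 and the glycolytic gene Aldoa at 915. Antigen presentation genes were H2-Aa at 2659.6, H2-Eb1 at 1367 and H2-K1 at 2337. The vascular genes Ecscr at 38.0 and Ephb4 at 134, the integrin gene Itga6 at 322 and Mal at 13.7 completed the set. Library 5 stood apart in 9 genes. Red cell genes were Hbb-bs at 11236 and Hbb-bt at 1976, and fat cell genes Cd36 at 99.2, Fabp4 at 100.1 and Lpl at 98.5. The others were Steap4 at 45.2, Oas2 at 13.6 and Vegfd at 7.42, and Adora2a, where 5 was the lowest, at 6.02. Library 4b stood apart in Elk4 at 95.5, the highest rich value, and Vegfb at 3.03, the lowest. Library 4a stood apart in none.

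Library 3 stood apart from the poor side in 14 genes. Muscle genes were Ttn at 5126 and Myh4 at 452, and proliferation genes Mki67 at 395, Top2a at 185 and Foxm1 at 116. The neuronal nitric oxide synthase gene Nos1 was at 812. Vascular genes were Efnb2 at 475, Gjc1 at 18.6, Vegfb at 27.6 and Col18a1 at 154. The others were Epcam at 67.9, Itga6 at 80.1, Mitf at 130.01 and Rerg at 7.43. Library 2R stood apart in 7 genes, with the B cell genes Ighm at 406 and Igkc at 194, and with H2-K1 at 1630.1, Cxcl12 at 658, Ednrb at 357, Gucy1a1 at 20.7 and Junb at 98.8. Library 1 stood apart in Chgb at 98.6 and Vtn at 37.1, as the highest poor library, and as the lowest poor library in Zfp385b at 11.1. Library 6 stood apart in Cdh19 at 491, Apoe at 2568 and Sncg at 28.4.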

How the results depend on the processing

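No gene was called by edgeR, at an adjusted p of 0.05, under any of the alternative filters, scalings, units, covariates or left-out libraries that were run, nor by limma-voom with the title number as a replicate block, where the smallest adjusted p was 0.0699. DESeq2 called 120 of 15144 genes higher and 51 lower, among them all 12 genes of smallest p in edgeR, which were picked on the same counts. The cause of the difference between the 2 tools was not tested. No paired analysis was possible because all libraries have 1 label group and the labels give no pairing; the block above only treats equal title numbers as related. With no TMM factor, an alternative added after seeing the data, 936 genes were separated upward, 25 downward, and 19 of the 32 endothelial genes upward. With the minimum count required in every unit, 8 of the 15 interferon genes left were separated; fewer genes were tested there. Leaving out single libraries gave 537 to 898 genes separated upward, 432 to 868 downward, and 11 to 25 endothelial genes, with fewer libraries to order. Of the log2 differences of described genes under all alternatives, 3011 moved by less than 1 SD of the libraries and 87 by more. That SD was taken within the sides, so it is wide for genes that were high in a single library. A change of sign was not counted apart. These counts therefore do not show that each difference was stable. Library 3, with 4817902 counts, limits low genes most.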

Other observations

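Outside the lists, some of the separated genes with the largest mean log2 differences are described here. They were chosen after their values were seen, and none passed edgeR's adjusted threshold. Npy, which encodes the vasoconstrictor neuropeptide Y, was at 678, 771, 353 and 759 CPM in 2L, 4a, 4b and 5, and at 353, 51.3, 88.6 and 3.08 CPM in 1, 2R, 3 and 6. Libraries 4b and 1 lay almost at the same level. Col7a1, the anchoring fibril collagen of epithelial basement membranes, was even on the rich side, at 198, 182, 191 and 216 CPM, and ranged from 1.69 to 99.2 CPM on the poor side. Comp, a matrix protein of cartilage and tendon, was at 72.7, 59.1, 92.9 and 169 CPM against 16.8, 2.43, 10.6 and 25.9 CPM. Wif1, an inhibitor of Wnt ligands, was at 56.6, 31.6, 16.1 and 96.5 CPM against 13.2, 4.72, 10.1 and 0.123 CPM, and Tnfrsf11b, the decoy receptor osteoprotegerin, at 17.99, 7.81, 6.36 and 15.05 CPM against 0.172, 2.59, 0.531 and 1.81 CPM. The prolactin receptor gene Prlr was at 188, 45.8, 57.3 and 42.3 CPM against 18.1, 1.83, 23.3 and 3.95 CPM, and Anxa8, an annexin, at 272, 201, 86.2 and 66.6 CPM against 37.9, 9.28, 25.5 and 5.01 CPM. The protease inhibitor gene Spint1 was at 19.4, 24.7, 17.6 and 8.83 CPM against 2.32, 1.37, 3.18 and 0.0411 CPM.

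Further genes chosen in the same way had the rich side lower. Grin3a, a subunit of the NMDA glutamate receptor, was at 7.601, 2.99, 3.18 and 1.003 CPM on the rich and 54.3, 389, 19.6 and 17.6 CPM on the poor side. Cntfr, the receptor for ciliary neurotrophic factor, was at 1.82, 5.03, 3.03 and 3.21 CPM against 19.7, 14.3, 71.1 and 15.3 CPM. The adhesion molecules Tenm3 and Sdk1 were at 36.5, 21.9, 5.54 and 27.2 CPM and 31.6, 48.96, 77.9 and 30.1 CPM on the rich side, against 48.9, 69.7, 219 and 186 CPM and 114, 308, 111 and 92.1 CPM on the poor side. Library 2R was far above the other poor libraries in Grin3a, and library 3 in Cntfr.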
